A study of Homo sapiens with 6 samples.

Results

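The genes described are the 10 listed symbols RN7SL1, RN7SL2, RN7SK, RMRP, SRP9, SRP14, SRP19, SRP54, SRP68 and SRP72, out of 59074 genes with a deposited value. They comprise 4 genes of non-polyadenylated RNAs and 6 genes of proteins of the signal recognition particle (SRP), and were selected on their level in each library and their change in each cell line, so these values are given as a description, with no test. The study measured RNA in established glioblastoma cell lines after HOTAIRM1 knockdown, HOTAIRM1 being a long non-coding RNA of the HOXA locus. LN-229 (spelled LNT229 in the sample titles), T98G and U251 cells were transfected with a non-target siPOOL (siControl) or a HOTAIRM1-specific siPOOL (siHOTAIRM1), a siPOOL being a mixture of siRNAs, and total RNA was isolated 72 h later. There was 1 library per cell line and condition (6 libraries), so within a cell line no change has a replicate, and the 3 cell lines served as the replicates. All libraries were prepared with TruSeq RNA Sample Preparation v2, which selects polyadenylated RNA.

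The SRP binds the signal peptide of a nascent secretory or membrane protein as it leaves the ribosome and brings the ribosome to the endoplasmic reticulum. It is built on 7SL RNA, with SRP9 and SRP14 on the Alu domain, which slows translation, and SRP19, SRP54, SRP68 and SRP72 on the S domain, which recognises the signal peptide and the receptor. 7SK RNA holds the elongation factor P-TEFb inactive together with HEXIM, LARP7 and MEPCE, and RMRP is the RNA of RNase MRP, which processes ribosomal RNA precursors. RNA polymerase III makes all of these RNAs.

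The RNA genes were placed on hg38 with the GENCODE v44 annotation, and each consists of a single exon. RN7SL1 (plus strand) and RN7SL2 (minus strand) lie on chromosome 14. Both encode 7SL RNA, and their reads are hard to tell apart. In their alignment, 295 of 300 columns (98.3%) were identical. After trimming, a read was 87 bases long, and of the 213 stretches of this length in RN7SL1, 119 (55.9%) were also found in RN7SL2. Counting every other annotated gene, 162 stretches of RN7SL1 (76.1%) and all 214 of RN7SL2 (100%) had an exact match elsewhere. The authors' Expectation-Maximization step divides such reads between genes, so the split between RN7SL1 and RN7SL2 is uncertain, and their sum is given beside each.

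RN7SK lies on chromosome 6 (plus strand). All 242 stretches of RN7SK were shared with a further annotated gene named 7SK, and 59 (24.4%) with the pseudogene RN7SKP71. RMRP lies at chr9:35657754-35658017 (minus strand), and none of its 178 stretches matched another gene annotated in GENCODE v44.

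The polymerase III promoters of these genes differ in kind, and the 100 bases before each start are shown for this reason. 7SL transcription uses an upstream ATF/CREB element together with sequence inside the gene, whereas 7SK and RMRP have gene-external promoters with a TATA box. Capitals mark TGACGT or TATA. The windows are chr14:49586480-49586579 (plus strand) for RN7SL1, chr14:49862850-49862949 (minus strand) for RN7SL2, chr6:52995521-52995620 (plus strand) for RN7SK and chr9:35658018-35658117 (minus strand) for RMRP.
RN7SL1 upstream: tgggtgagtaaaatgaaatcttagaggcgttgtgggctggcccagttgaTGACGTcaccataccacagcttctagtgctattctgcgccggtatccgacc
RN7SL2 upstream: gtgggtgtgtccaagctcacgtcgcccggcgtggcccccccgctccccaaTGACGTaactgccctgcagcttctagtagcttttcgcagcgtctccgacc
RN7SK upstream: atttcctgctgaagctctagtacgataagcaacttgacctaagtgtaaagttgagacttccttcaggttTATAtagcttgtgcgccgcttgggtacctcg
RMRP upstream: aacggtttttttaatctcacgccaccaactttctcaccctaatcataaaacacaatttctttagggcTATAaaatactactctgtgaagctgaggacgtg
TGACGT was searched on both strands from 250 bases before to 50 bases after each start. It was present at RN7SL1 and RN7SL2, absent from this window of RN7SK and RMRP, and found in 7.98% of 35116 RefSeq promoters of the same length (GRCh38). The full palindrome TGACGTCA, which contains TGACGT, was present at RN7SL1 alone of the 4 RNA genes and in 1.85% of promoters. TATA on the gene strand between positions -40 and -16 was present at RN7SK and RMRP and in 6.24% of promoters. Among the SRP protein genes, the promoters of SRP19 and SRP54 held TGACGT and that of SRP54 held TATA. These matches are descriptions of sequence and no binding was measured.

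HOTAIRM1, the target of the siPOOL, was at 1.99 (siControl) and 0.952 CPM (siHOTAIRM1) in LN-229, 3.49 and 2.15 CPM in T98G and 1.27 and 0.623 CPM in U251. CPM is a read count scaled to the total reads of the library. HOTAIRM1 was thus lower after knockdown in 3 of 3 cell lines, with a log2 fold change of -0.54 on the log2(CPM + 1) scale (adjusted p = 0.0146, limma). This call was kept with a pseudocount of 0.1 CPM, where the log2 fold change was -0.87, and without U251 (-0.56). It was lost with no replicate block (cell line), with no filter on CPM, after median centring, after rescaling to genes outside the non-polyadenylated classes (also with rows listed by family name left out, chosen after seeing the data), and without LN-229 or T98G. In the settings that lost the call, the log2 fold change lay between -0.46 (median centring) and -0.55 (without T98G). HOTAIRM1 was too low to be tested under the filter of 5 CPM. The worth of 1 read, taken from the most frequent low value of each library, put the depth at 88.3 M reads in the siControl and 104 M in the siHOTAIRM1 library of LN-229. T98G had 69.1 and 72.7 M reads, and U251 had 52.3 and 101 M. The siControl library of U251 was the shallowest of the 6. The CPM of all listed genes summed to 470100 and 485281 in LN-229, 502181 and 428684 in T98G, and 672477 and 559226 in U251, so the siControl library of U251 also had the highest listed sum. Mean changes of the RNAs are also given without U251 and without LN-229. The glioma cell line markers VIM and CD44 were at 253.7 CPM or more in every library. EGFR was at 44.4 to 170.7 CPM. In T98G, NES was at 0.866 to 0.956 CPM and SOX2 under 0.1 CPM. GFAP was under 0.1 CPM in T98G, at 0.317 and 0.298 CPM in LN-229, and at 42.5 and 20.7 CPM in U251. Markers of leukocytes (PTPRC), endothelium (PECAM1), epithelium (EPCAM) and hepatocytes (ALB) reached at most 0.523 CPM, and their summed level was 0.119 to 0.825 CPM.

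7SL RNA was the most abundant of the RNAs, and its level was highest in U251. RN7SL1 was at 18564 (siControl) and 21047 CPM (siHOTAIRM1) in LN-229, 16118 and 11862 CPM in T98G, and 60589 and 27894 CPM in U251. RN7SL2 was at 17030 and 19621 CPM in LN-229, 15639 and 11740 CPM in T98G, and 36870 and 26585 CPM in U251. Both copies were lowest in T98G after knockdown and highest in the siControl library of U251, and both U251 libraries were above the other 4. The siControl and siHOTAIRM1 levels overlapped for each copy. Of the 10 genes, 7 had both U251 libraries above the other 4, where 32.7% of the 14294 tested genes (mean of at least 1 CPM) did so. Since levels were used to choose the genes, nothing is read from this share. In RMRP and RN7SK, the siHOTAIRM1 library of U251 was within the range of the other cell lines.

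Summed, RN7SL1 and RN7SL2 were at 35595 and 40668 CPM in LN-229, 31757 and 23602 CPM in T98G, and 97460 and 54479 CPM in U251. LN-229 showed a log2 change (siHOTAIRM1 minus siControl, log2(CPM + 1)) of 0.19, T98G of -0.43 and U251 of -0.84. 7SL RNA was thus higher after knockdown in LN-229 and lower in T98G and U251, with a mean change of -0.36 ± 0.52 (SD, n = 3 cell lines), or -0.12 without U251 and -0.63 without LN-229. In bulk RNA, a change in all cells and a change in some of them cannot be told apart. Over all tested genes, LN-229 had a median change of 0.01, T98G of -0.19 and U251 of -0.03. Relative to this overall median, the change of summed 7SL RNA was 0.18, -0.24 and -0.81. These directions were the same with each library centred on its median, and with CPM rescaled to the listed genes outside the non-polyadenylated classes. In U251, 3.02% of the tested genes had a lower change than summed 7SL RNA, against 14.3% in T98G.

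The copies RN7SL1 and RN7SL2 kept nearly equal CPM in all libraries except 1. RN7SL1 over RN7SL2 was 1.09 and 1.07 in LN-229, 1.03 and 1.01 in T98G, 1.64 in the siControl library of U251 and 1.05 in its siHOTAIRM1 library. In U251 the log2 change of RN7SL1 was therefore -1.12 and that of RN7SL2 -0.47, whereas in T98G they were -0.44 and -0.41 and in LN-229 0.18 and 0.20. Whether reads were divided differently in the siControl library of U251 was not tested. The other listed 7SL copies, 602 in number, together held 307.1 to 707.9 CPM, led by the pseudogene RN7SL4P. Their sum was lower after knockdown in each cell line (-0.38, -0.25 and -0.55), in LN-229 the opposite direction to RN7SL1 and RN7SL2. RN7SL2 shared 106 of its 214 stretches of read length with RN7SL4P. How reads were divided among the copies is thus uncertain, and nothing is read from the difference in direction. Adding the other copies to the much more abundant RN7SL1 and RN7SL2 gave a mean change of -0.36. RN7SL3, a further annotated 7SL gene, was not analysed on its own.

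RN7SK had the direction of summed 7SL RNA in each cell line. Its level was 10649 and 12914 CPM in LN-229, 10438 and 8922 CPM in T98G, and 22596 and 9860 CPM in U251. The siControl library of U251 stood above all others, and the other 5 libraries lay between 8922 and 12914 CPM. The log2 changes were 0.28, -0.23 and -1.20 in LN-229, T98G and U251 (mean -0.38 ± 0.75, SD, n = 3). Relative to the overall median it was 0.27, -0.04 and -1.17, so in T98G RN7SK moved little apart from the general shift. The mean was 0.03 without U251 and -0.71 without LN-229. The other listed 7SK copies were lower after knockdown in each cell line (-0.11, -0.34 and -1.03 in their sum), as was a row listed under the family name 7SK (-0.18, -0.42 and -1.20), in LN-229 the opposite direction to RN7SK. Summed 7SL RNA over RN7SK was 3.34 and 3.15 in LN-229, 3.04 and 2.65 in T98G, and 4.31 and 5.52 in U251, so in U251 the difference after knockdown was larger for RN7SK than for 7SL RNA.

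RMRP was less abundant. Its level was 726.1 and 801.4 CPM in LN-229, 962.7 and 770.7 CPM in T98G, and 1432 and 853.2 CPM in U251. The log2 change was 0.14, -0.32 and -0.75 in these cell lines (mean -0.31 ± 0.44, SD, n = 3), and 0.13, -0.13 and -0.72 relative to the overall median. The highest level again belonged to the siControl library of U251, and the lowest to that of LN-229. The mean change was -0.09 without U251 and -0.53 without LN-229. A separate row listed under the family name RNase_MRP held 1487 and 1658 CPM in LN-229, 1972 and 1659 CPM in T98G, and 2937 and 1765 CPM in U251. RMRP over this row was 0.465 to 0.488 in the 6 libraries, a nearly fixed ratio, in contrast to RN7SL1 over RN7SL2. The position of this row is not given in the sources used here. It was kept apart from RMRP and may hold reads of it, so the level of RMRP is uncertain beyond its counting interval.

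The widest 95% interval of an RNA level (Wilson) was ± 0.828% of the level. For a log2 change, with an interval from the read counts of both libraries on the log scale, the widest was ± 0.02. For the SRP protein genes, the fewest reads were 1094, and the widest intervals were ± 5.93% of a level and ± 0.11 of a log2 change. These intervals cover counting error only and not the spread between libraries.

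**Figure D1:**
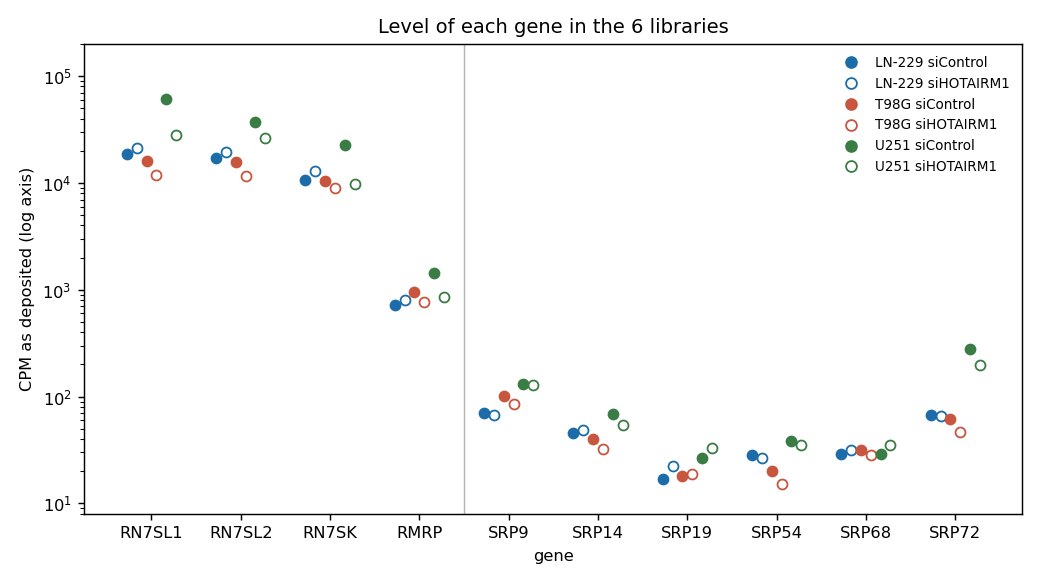
CPM as deposited (log axis) of each of the 10 genes, with 1 point per library, filled for siControl and open for siHOTAIRM1, coloured by cell line. The RNA genes lie left of the line, with RN7SL1 between 11862 and 60589 CPM, and the SRP protein genes right of it, where SRP72 stands higher in both U251 libraries (277.1 and 199.0 CPM).

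The SRP protein mRNAs differed among themselves in their changes, and no difference from 7SL RNA was tested. Their log2 changes lay between -0.48 and 0.38 in the 3 cell lines. As a median over the 6 genes, LN-229 had a change of 0.02, T98G of -0.27 and U251 of -0.07, each with the sign of the change of summed 7SL RNA, and relative to the overall median 0.01, -0.08 and -0.04. After median centring, and after rescaling to the listed genes outside the non-polyadenylated classes, the signs of the LN-229 and U251 medians turned, and both remained within 0.06 of 0.

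SRP9 and SRP14 form the heterodimer of the Alu domain. SRP9 (chromosome 1) was at 70.2 and 66.9 CPM in LN-229, 101.9 and 86.0 CPM in T98G, and 131.4 and 129.6 CPM in U251. SRP14 (chromosome 15) was at 45.8 and 49.0 CPM in LN-229, 40.4 and 32.6 CPM in T98G, and 68.8 and 53.8 CPM in U251. Both were highest in U251. The log2 changes of SRP9 were -0.07, -0.24 and -0.02, and those of SRP14 were 0.09, -0.30 and -0.35, so SRP14 was the closer of the pair to 7SL RNA in U251. Per kilobase of canonical transcript, SRP9 over SRP14 was 1.03 to 1.99. Of 1395 stretches of read length in SRP9, 175 (12.5%) were shared with the pseudogene SRP9P1, so part of its level is uncertain.

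SRP19, which helps SRP54 to join the particle, had a higher CPM after knockdown in all 3 cell lines, as did no other of the 10 genes in the deposited values, although SRP68 also did so after median centring or rescaling. It was at 17.0 and 22.3 CPM in LN-229, 17.9 and 18.8 CPM in T98G, and 26.7 and 33.3 CPM in U251. The log2 changes were 0.38, 0.07 and 0.31 (mean 0.25 ± 0.16, SD, n = 3), and relative to the overall median 0.37, 0.26 and 0.34. In T98G the 95% counting interval of the change reached from -0.04 to 0.18. The direction was the same in all 3 cell lines under each scaling. In SRP19 (chromosome 5), 354 of 2690 stretches (13.2%) were shared with another annotated gene.

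SRP54, the GTPase that binds the signal peptide, was at 28.3 and 26.6 CPM in LN-229, 20.3 and 15.0 CPM in T98G, and 38.3 and 35.1 CPM in U251. It had lower values after knockdown in each cell line, with log2 changes of -0.08, -0.41 and -0.12, and the sign in U251 turned under rescaling (0.00). SRP54 and the 7SL genes all lie on chromosome 14. SRP68 was at 29.3 and 31.9 CPM in LN-229, 31.9 and 28.2 CPM in T98G, and 28.8 and 35.6 CPM in U251. Its level varied least of the 10 genes, with the highest library 1.26 times the lowest. The log2 changes of SRP68 were 0.12, -0.17 and 0.29, and the T98G value became 0.02 relative to the overall median.

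SRP72, the partner of SRP68 on the S domain, had the widest range of levels of the SRP protein genes, with the highest library 5.98 times the lowest. It was at 67.4 and 65.2 CPM in LN-229, 61.1 and 46.3 CPM in T98G, and 277.1 and 199.0 CPM in U251. Both U251 libraries stood clear of the other 4. SRP72 over SRP68 per kilobase was 1.21 to 1.69 in LN-229 and T98G, and 7.06 and 4.11 in U251. The log2 changes after knockdown were -0.05, -0.39 and -0.48, and -0.06, -0.20 and -0.45 relative to the overall median.

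**Figure D2:**
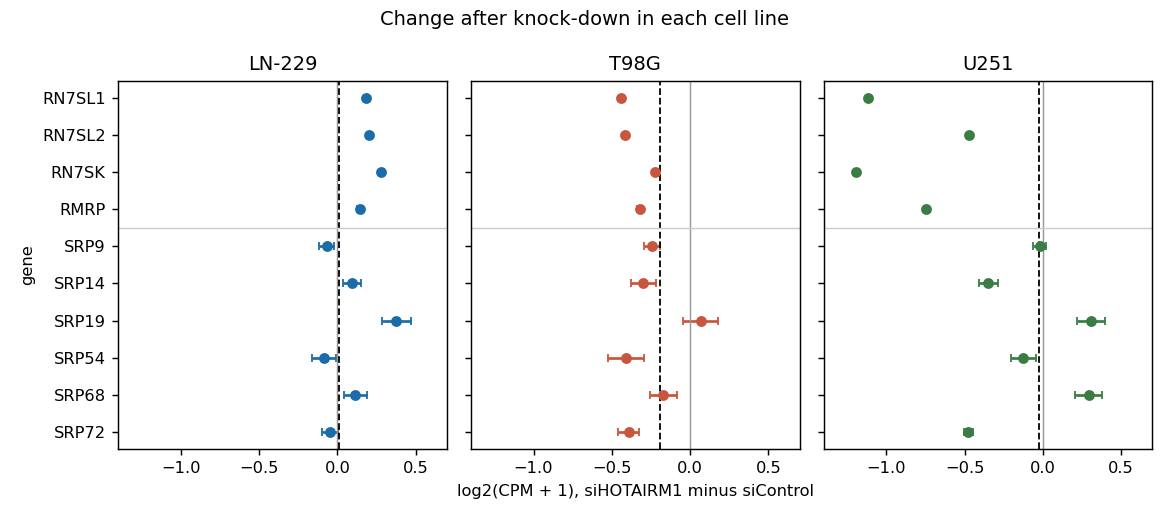
Change of log2(CPM + 1) after knockdown (siHOTAIRM1 minus siControl) of the 10 genes in each cell line, with 95% counting intervals as bars, which for the RNAs are narrower than the points. The dashed line is the median change of all tested genes (-0.19 in T98G), and the RNA genes lie right of it in LN-229 and left of it in U251, whereas SRP19 lies right of it in each panel.

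The U251 level of SRP72 was shared by genes beside it on chromosome 4. This comparison was chosen after the values were seen. The difference between the mean of the 2 U251 libraries and the mean of the other 4, on the log2(CPM + 1) scale, was 1.97 for SRP72, and 3.27% of the tested genes were at or above this value. Within 1 Mb of SRP72 (chr4:56467617-56503681) there were 11 other tested genes, with a median difference of 1.77, and 10 of them had both U251 libraries above the other 4. They included IGFBP7, a secreted protein with the largest difference (3.05), POLR2B, a subunit of RNA polymerase II (1.93), the purine synthesis genes PAICS (2.35) and PPAT (1.99), the exocyst gene EXOC1 (1.89) and the centriole gene CEP135 (1.70). REST (0.49) and the pseudogene RPL7AP31 (0.19) were lower than the rest. The median difference of all tested genes was 0.18. Around the other SRP protein genes, the medians of the neighbours were 0.32 (SRP9), -0.20 (SRP14), 0.52 (SRP19), 0.58 (SRP54) and 0.46 (SRP68). Of these neighbours, 4 of 10 (SRP9), 3 of 21 (SRP14), 5 of 8 (SRP19), 9 of 16 (SRP54) and 25 of 43 (SRP68) had both U251 libraries above the other 4, against 32.7% of all tested genes (4680 of 14294). Copy number was not measured in these data, and its part in the level of SRP72 was not tested.

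**Figure D3:**
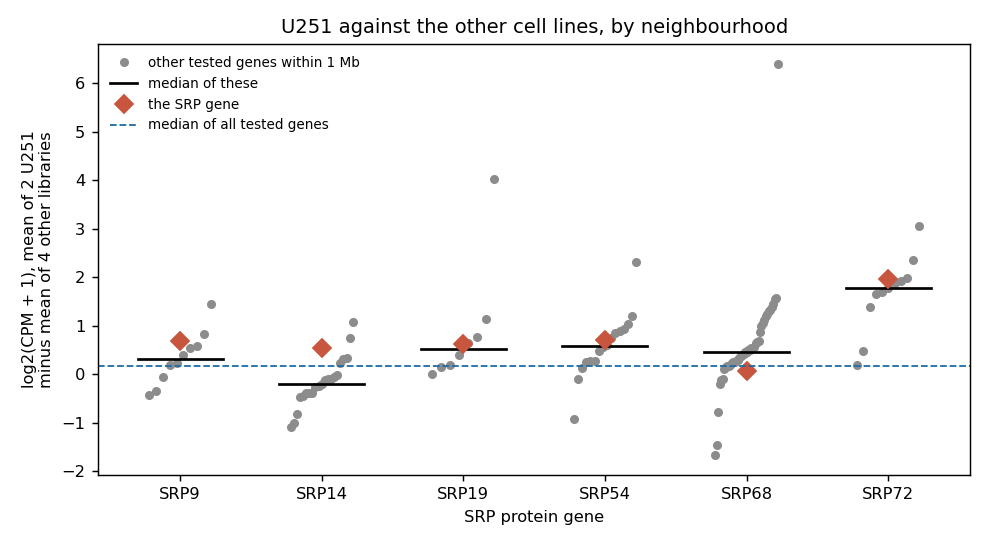
Difference in log2(CPM + 1) between the mean of the 2 U251 libraries and the mean of the other 4 libraries, for each SRP protein gene (diamond) and the other tested genes within 1 Mb of it (points, with their median as a bar). The median of the SRP72 neighbours was 1.77, against 0.18 for all tested genes (dashed line).

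Per kilobase, the RNAs and the protein mRNAs of the particle were orders of magnitude apart. Summed 7SL RNA was at 118847 and 135785 CPM per kb in LN-229, 106035 and 78804 in T98G, and 325408 and 181899 in U251. The median of the 6 SRP protein mRNAs was 15.2 and 14.5 CPM per kb in LN-229, 13.6 and 11.0 in T98G, and 39.5 and 32.1 in U251. SRP9 had the highest and SRP19 the lowest level per kb in each of the 6 libraries, and they differed 5.61- to 10.7-fold. RN7SK (27200 to 68890 CPM per kb) and RMRP (2751 to 5423) lay between 7SL RNA and the mRNAs. Because the libraries were made from polyadenylated RNA, levels of non-polyadenylated RNAs need not follow the amount in the cell.

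The 4 RNA genes together made up 9.99% and 11.2% of the listed CPM in LN-229, 8.59% and 7.77% in T98G, and 18.1% and 11.7% in U251, with 95% counting intervals (Wilson) of at most ± 0.0127 percentage points. The 6 SRP protein genes made up 0.0530 to 0.0870%. Between the U251 libraries, the listed sum differed by -113251 CPM, of which -56295 CPM (49.7%) was in the 4 RNA genes. In LN-229 the 4 genes took 7413 of 15181 CPM gained (48.8%), and in T98G -9864 of -73496 CPM (13.4%). Each share is of a net difference, in which gains and losses of other genes cancel. The net difference was a gain in LN-229 and a loss in T98G and U251, so the shares are not compared between cell lines.

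The sums of the snoRNAs, snRNAs and histone genes were also highest in the siControl library of U251, whereas Y RNA was highest in its siHOTAIRM1 library. The snoRNAs summed to 5683 and 6375 CPM in LN-229, 7326 and 6407 CPM in T98G, and 11761 and 3480 CPM in U251. Their most abundant gene, the U3 snoRNA SNORD3A, was at 3647 and 4380, 5571 and 4792, and 7115 and 1609 CPM, with log2 changes of 0.26, -0.22 and -2.14. The histone genes, whose mRNAs end in a stem-loop, had changes of 0.04, -0.41 and -0.84 in their sum, and their leading gene HIST1H1C, which was highest in the siControl library of T98G, of -0.28, -0.56 and -0.70. The snRNA sum differed in sign in T98G (0.04, 0.06 and -0.55), and its leading gene RNU2-1 had changes of 0.01, -0.05 and -0.84. A row listed under the family name RNaseP_nuc was at 1743 and 2173 CPM in LN-229, 2807 and 2377 CPM in T98G, and 10159 and 2823 CPM in U251, whereas RPPH1, the RNA of RNase P, was at 3.37 to 18.9 CPM. The position of this row is not given in the sources used here, and it may hold reads of RPPH1, so the level of RPPH1 is uncertain. RNY1, the most abundant Y RNA, differed from these with changes of -0.08, -0.40 and 0.32. VTRNA2-1 and TERC, the leading vault RNA and the telomerase RNA, were below 1 CPM in every library. MALAT1, a nuclear RNA with a processed 3′ end, was higher after knockdown in each cell line (0.47, 0.39 and 0.70), the opposite direction to 7SL RNA in T98G and U251.

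**Figure D4:**
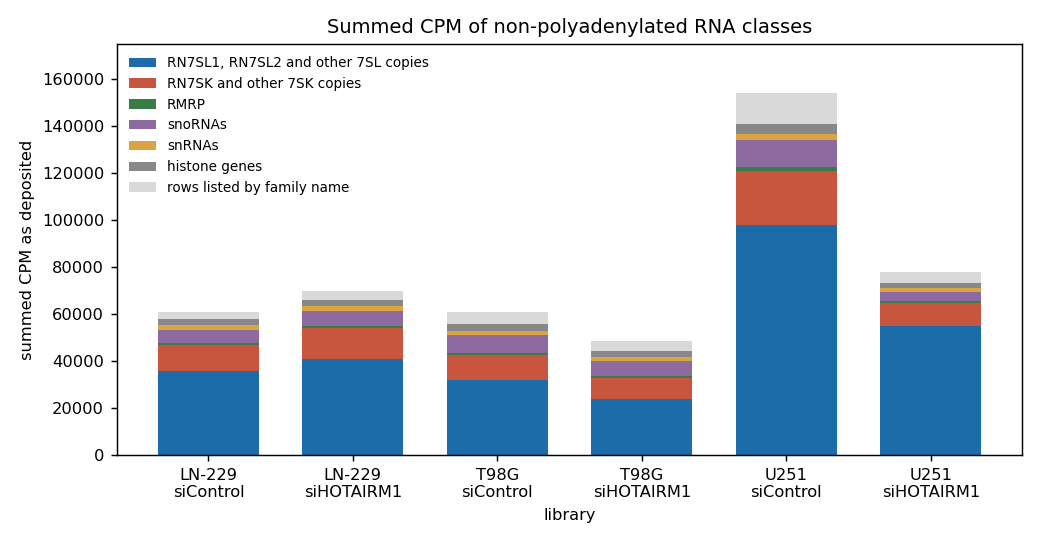
Summed CPM of the non-polyadenylated RNA classes in each library, as stacked bars from 0, with rows that are listed only by an RNA family name on top. The siControl library of U251 is the highest, with 140831 CPM in the classes, against 44448 to 73309 CPM in the other 5 libraries.

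Genes with a profile close to that of 7SL RNA were sought outside the non-polyadenylated classes. Rows listed by family name and MALAT1 were not left out. Likeness was measured over the 6 libraries as the root mean square difference of log2(CPM + 1), each gene centred on its mean, among 14134 genes outside the non-polyadenylated classes and the 10 genes described. Among the 5 nearest to summed 7SL RNA were the ribosomal protein gene RPS9 (0.05), the spliceosomal gene SNRPD2 (0.05), the ribosomal protein gene RPL23 (0.07) and ASNA1 (0.07), a factor of tail-anchored membrane protein insertion now named GET3. The median of the genes compared was 0.67. RPS9 was at 89.9 and 97.1 CPM in LN-229, 77.3 and 61.1 CPM in T98G, and 255.7 and 138.8 CPM in U251. Its likeness to 7SL RNA is what it was chosen by. Of the SRP protein genes, the nearest was SRP54 (0.32) and the farthest SRP68 (0.64).

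For RN7SK, the nearest genes were the SCAN-domain gene SCAND1 (0.09), the ribosomal pseudogene RPS27AP1 (0.10), the LIM-domain gene LMO4 (0.11), the prefoldin gene PFDN5 (0.13) and DBI (0.14), which encodes an acyl-CoA binding protein. The median of the genes compared was 0.54. LMO4 was at 19.0 and 24.1 CPM in LN-229, 21.1 and 17.9 CPM in T98G, and 39.9 and 21.1 CPM in U251. It was likewise chosen by its likeness to RN7SK.

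**Figure D5:**
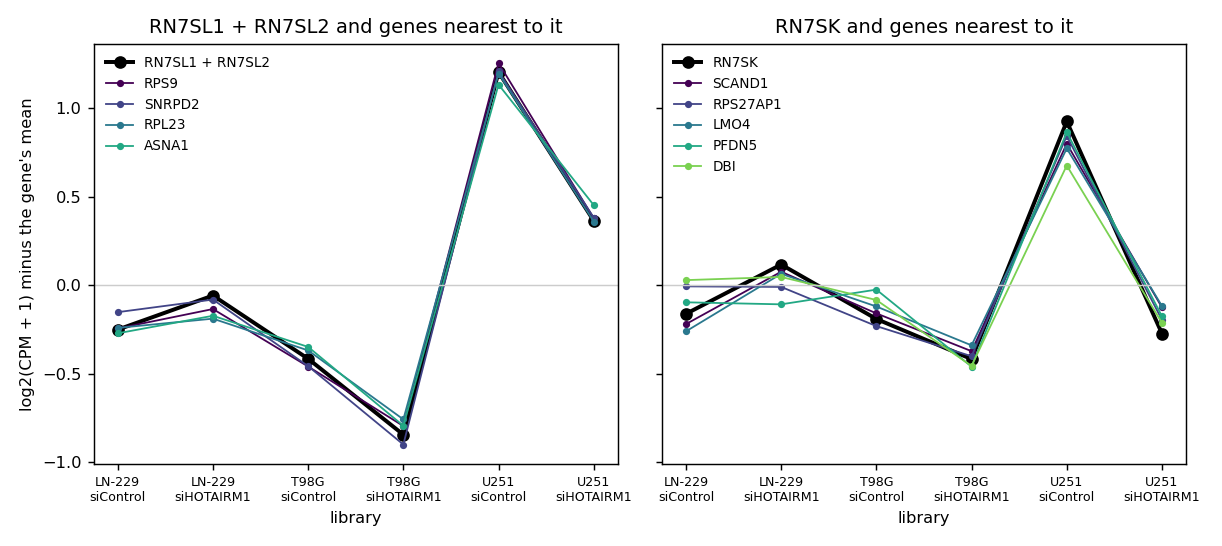
Profile over the 6 libraries of summed 7SL RNA (left) and RN7SK (right), as log2(CPM + 1) minus the gene's mean, with 4 of the 5 genes nearest to 7SL RNA and the 5 nearest to RN7SK. In both panels the siControl library of U251 is the highest point, and the nearest gene differs from the profile by a root mean square of 0.05 (RPS9) and 0.09 (SCAND1).

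Genes that work with these RNAs and proteins were tested in a limma model over all 14294 genes with cell line as block, in which 286 genes (2%) passed an adjusted p of 0.05, 59 (0.413%) higher and 227 (1.59%) lower after knockdown. Of 67 tested partner genes in 6 lists, 1 passed, RPP40. At an unadjusted p under 0.05 there were 13 (19.4%), all with lower values. Of all tested genes, 18.3% had an unadjusted p under 0.05, and 14.2% had it with a lower value. The number of genes called depended on the processing, with 0 called without the cell line block, 14 after rescaling to the listed genes outside the non-polyadenylated classes, and 0 when T98G was left out. RPP40 was not called in any of these.

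The SRP receptor and the translocon receive the ribosome at the membrane. Neither SRPR, the alpha subunit of the receptor (log2 fold change -0.07), nor SRPRB, its membrane anchor (-0.24), passed the test in limma, and neither had an unadjusted p under 0.05. Of 17 translocon and signal peptidase genes, 0 passed in limma. An unadjusted p under 0.05 was found for 5 (29.4%, all lower), where 14.2% of all tested genes had it with a lower value. The median log2 fold change of the list was -0.09, against -0.07 for all tested genes. The most abundant were SSR2, of the translocon-associated complex (105.9 to 232.0 CPM, log2 fold change -0.09), and SEC61A1, the channel itself (157.0 to 206.6 CPM, -0.16). The 5 genes, named after their values were seen, were the small translocon subunits SEC61B (-0.35) and SEC61G (-0.41), SSR4 (-0.34), and SEC11C (-0.45) and SPCS1 (-0.39) of signal peptidase. Their changes in U251 were -0.56 to -0.84 and in T98G -0.41 to -0.62, whereas in LN-229 they were -0.19 to 0.11. Because these genes were picked by their p, nothing is read from their changes by cell line.

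In the list of the 7SK particle and P-TEFb, 0 of 7 genes passed in limma, with an unadjusted p under 0.05 for 0. CCNT1 and CCNT2, the cyclins of P-TEFb, were the most abundant, with log2 fold changes of -0.06 and -0.04. The median changes of the list were 0.04, -0.19 and -0.05 in LN-229, T98G and U251, close to those of all genes, whereas RN7SK differed by -1.20 in U251.

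Among the proteins of RNase MRP and RNase P, 10 of 11 genes were tested, and RPP25 was below 1 CPM on average. RPP40, a subunit shared by both enzymes, was at 3.46 and 2.72 CPM in LN-229, 4.40 and 2.83 CPM in T98G, and 13.1 and 6.62 CPM in U251. It fell in 3 of 3 cell lines, with a log2 fold change of -0.55 ± 0.15 (SE, adjusted p = 0.0417, limma). RPP40 also passed with a pseudocount of 0.1 CPM and with the filter of 5 CPM. It did not pass with no replicate block, with no filter, after median centring or after either rescaling. Nor did it pass when any 1 of the cell lines was left out. The most abundant genes of this list, POP1 (-0.26) and POP4 (-0.39), did not pass. At an unadjusted p under 0.05 in limma there were 3 of the 10 genes (30%), all lower, where 14.2% of all tested genes were lower at this p. The median of the list was -0.28, against -0.07 for all tested genes. The levels of RPP40, POP1 and POP4 were each highest in the siControl library of U251, which also had the highest listed sum.

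Of 13 subunits of RNA polymerase III, 0 passed and 3 (23.1%, all lower) had an unadjusted p under 0.05 in limma. Among all tested genes, 14.2% were lower at this p. POLR3A, the catalytic subunit, was the most abundant, with a log2 fold change of 0.11. POLR3G, singled out after its values were seen, was at 17.2 and 11.2 CPM in LN-229, 10.5 and 6.64 CPM in T98G, and 23.2 and 18.2 CPM in U251, with a log2 fold change of -0.50 (adjusted p = 0.0573, limma, lower in 3 of 3 cell lines). Of 18 RNA polymerase III factors, 0 passed and 2 (11.1%, all lower) had an unadjusted p under 0.05 in limma. BDP1, a subunit of TFIIIB, and GTF3C1, a subunit of TFIIIC, were the most abundant (-0.07 and 0.14). The medians of the polymerase subunits and the factors were -0.14 and -0.12.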

How the data were processed

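RNA was measured in 6 libraries. Per the study's methods, the authors trimmed 13 bases at the 5′ and 1 base at the 3′ end in Partek Flow, aligned to hg38 with STAR 2.4.1d (also named in the submitters' processing notes), ran those left unaligned through Bowtie 2, and quantified reads on Ensembl release 84 by Expectation-Maximization. The authors deposited CPM values with 0.0001 added to each. Scaling to total reads lets abundant RNAs such as 7SL shift the CPM of all other genes. Genes averaging 1 CPM or more were tested on log2(CPM + 1) with limma 3.58.1 (R 4.3.3), with cell line as block, a mean-variance trend and Benjamini-Hochberg adjustment, after a check on simulated data. Libraries of the same cell line deviated together from the condition means (correlations across genes of 0.948 to 0.967). The steps outside limma used Python 3.11.15. Members and lists were chosen with earlier results of these data known. Named genes were the 10 members, HOTAIRM1, every called and the 2 most abundant genes of each partner list, the leading gene of each RNA class and the 5 nearest profiles. Others, among them partner genes with an unadjusted p under 0.05 and neighbours of SRP72, were named after their values were seen. Alternatives were other scalings, pseudocounts, filters and cell lines left out. Older symbols were matched through RefSeq synonyms. Of the genes this rule names, 2 are not reported here.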

Additional observations from a re-analysis of the deposited data

Results flagged for a closer look

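The RNAs differed in direction between cell lines and were higher after knockdown in LN-229 and lower in T98G and U251. The log2 change in LN-229 minus that in T98G was 0.62 for summed 7SL RNA, 0.50 for RN7SK and 0.46 for RMRP. The log2 change in LN-229 minus that in U251 was 1.03 for summed 7SL RNA, 1.47 for RN7SK and 0.89 for RMRP. With 1 library per cell line and condition, these differences were not tested.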

How the results depend on the processing

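The count of genes changed by knockdown (286) was 0 with no replicate block, where cell line was left out of the model (limma), 41 (36.6% higher, against 20.6% in the model as reported) after median centring, 14 (35.7% higher) after rescaling to the listed genes outside the non-polyadenylated classes, 10 (30.0% higher) when rows listed by family name were also left out, an alternative chosen after seeing the data, 683 with a pseudocount of 0.1 CPM, 0 with no filter and 607 with a mean of at least 5 CPM. Leaving out 1 cell line gave 0 (T98G) to 270 (LN-229) genes, with 149 without U251. At an unadjusted p under 0.05 the counts of 0 corresponded to 29 (no block), 2477 (no filter) and 1206 (without T98G) genes. The count of partner genes called (1) was 0 with no replicate block, after median centring, after either rescaling, with no filter and after leaving out any 1 of the cell lines (with 0 to 17 at an unadjusted p under 0.05 in limma), and 4 with the lower pseudocount or the higher filter. Under both, the genes called were RPP40, POLR3G, SEC11C and the RNA polymerase III factor GTF3C6, all lower after knockdown. The mean log2 change was -0.63 to -0.12 for summed 7SL RNA, -0.71 to 0.03 for RN7SK, -0.53 to -0.09 for RMRP and -0.17 to 0.00 for the median SRP protein gene over all alternatives, where the reported values were -0.36, -0.38, -0.31 and -0.11. For the RNAs, leaving out LN-229 gave the lowest and leaving out U251 the highest of these means. The only mean that turned was that of RN7SK, without U251. Adding the rows listed by family name, chosen after seeing the data, left the means at -0.36, -0.38 and -0.29. The causes of these shifts were not tested. With 1 library per cell line and condition, no value has a replicate within a cell line.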
